A study of Mus musculus with 25 samples.

Results

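The genes described here encode receptors for small-molecule neurotransmitters: the serotonin, dopamine, adrenergic, muscarinic and nicotinic acetylcholine, histamine, GABA-A, ionotropic and metabotropic glutamate, and glycine receptors. They were chosen by a pattern of symbols (Htr, Drd other than *Drd2*, Adra, Adrb, Chrm, Chrn, Hrh, Gabr, Gria, Grin, Grik, Grm, Glra and *Glrb*). The pattern took 68 of the 15768 genes that the tables list, of which 62 are in the long-term table of 15315 genes, 52 in the short-term table of 14007 genes and 46 in both. Of the 68, 67 are protein coding. The remaining symbol, *Grin1os*, is an antisense RNA that lies inside *Grin1* on chromosome 2, and its 7403 bases are shared with that gene, so that reads of both cannot be told apart without strand. The channel subunits comprise 16 GABA-A, 11 nicotinic, 6 NMDA, 5 kainate, 4 AMPA and 3 glycine receptor genes and the serotonin-gated channel gene *Htr3a*. The G protein-coupled receptors comprise 5 metabotropic glutamate, 5 serotonin, 4 muscarinic, 3 adrenergic, 3 histamine and 1 dopamine receptor gene.

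The study asked what happens to pituitary tumors when the retinoblastoma protein RB, encoded by *Rb1*, is put back after having been depleted. Whole pituitaries and pituitary tumors were profiled from sh*Rb* mice, which carry Rosa26-rtTA and, at Col1a1, the doxycycline (dox)-inducible shRb5-4 hairpin against Rb linked to GFP. Every group shares both transgenes, the line derives from 1 embryonic stem cell clone, rtTA is driven by the broadly active Rosa26 promoter rather than by one restricted to pituitary cells, and there is no group without the transgenes or without any dox. In the long-term experiment (poly(A)-enriched libraries) the groups were 6w+dox (6 weeks of dox, 3 females), 12w+dox (12 weeks of dox, 2 females and 2 males) and 12w-res (6 weeks of dox followed by 6 weeks without, 3 females and 2 males). In the short-term experiment (rRNA-depleted libraries) they were 16w +dox (3 males) and samples taken 1 day (1d -dox, 4 females), 3 days (3d -dox, 3 males) and 5 days (5d -dox, 3 females) after withdrawal. Ages other than the weeks of treatment are not given in the labels. Nothing in the labels says that samples numbered as replicates are separate mice, so the p-values measure the spread between these samples.

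Ionotropic receptors are channels assembled from several subunits that open when the transmitter binds. GABA-A and glycine receptors pass chloride, and AMPA, kainate, NMDA, nicotinic and 5-HT3 receptors pass cations. The other receptors act through G proteins on cAMP, calcium or potassium channels. The melanotrophs of the pituitary intermediate lobe, the *Pomc*-expressing cells that give rise to tumors in Rb-deficient mice, are excitable cells that receive GABA and dopamine fibers.

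Gene expression is given as FPM, reads of a gene scaled by the size factor of the library, and whole reads were recovered from it. The libraries held 19066053 to 28968476 reads on genes in the long-term experiment and 9573101 to 13036900 in the short-term one. *Rb1* stood at 1.86, 2.54 and 5.09 FPM at 6w+dox, 3.45, 2.42, 2.93 and 4.05 at 12w+dox, and 16.1, 17, 20.3, 19.2 and 18.2 in 12w-res, a log2 difference of 2.35 ± 0.22 (SE) between the 12-week groups (adjusted p = 3e-06, limma). The melanotroph gene *Pomc* took 12.9% to 23.0% of the 12w+dox reads and 39.1% to 43.2% of those of 12w-res. Each of the 13 lists of markers and pathway genes had 0 listed members without reads in any group. Genes are listed only past a filter on reads, so this was largely fixed beforehand and says little about tissue content. In the short-term experiment GFP, the reporter of the hairpin, fell from a mean of 1246 FPM at 16w +dox to 606 at 1 day, 122 at 3 days and 11.7 at 5 days, while *Rb1* was 3.47 to 4.89 FPM at 16w +dox and 4.92 to 5.38 at 5 days (log2 difference 0.27 ± 0.17, adjusted p = 0.525, limma). FPM values of both experiments were scaled separately and are not compared with each other.

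Receptors of every family but dopamine were listed in both tables. The long-term mean over 12 samples, in FPM per kb of the longest transcript, was 26.2 for *Grin1*, the obligatory subunit of NMDA receptors, 19.5 for *Grik5*, the GluK5 kainate subunit, and 17.7 for *Glrb*, the beta subunit of glycine receptors, each the highest of its family. The leading gene of other families stood at 8.29 (*Htr3a*), 7.73 (*Chrnb2*, the nicotinic beta2 subunit), 7.46 (*Gria2*, the AMPA subunit that makes these channels impermeable to calcium), 2.16 (*Chrm4*, a Gi-coupled muscarinic receptor), 1.5 (*Hrh3*, the Gi-coupled histamine receptor), 1.17 (*Htr2b*, the Gq-coupled 5-HT2B receptor) and 0.722 (*Grm2*, a Gi-coupled glutamate receptor). These genes also led their families in the short-term libraries except for the metabotropic glutamate (*Grm7*), muscarinic (*Chrm3*), serotonin (*Htr7*) and histamine (*Hrh1*) receptors, and *Drd3* was the only dopamine receptor taken by the pattern.

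**Figure D1:**
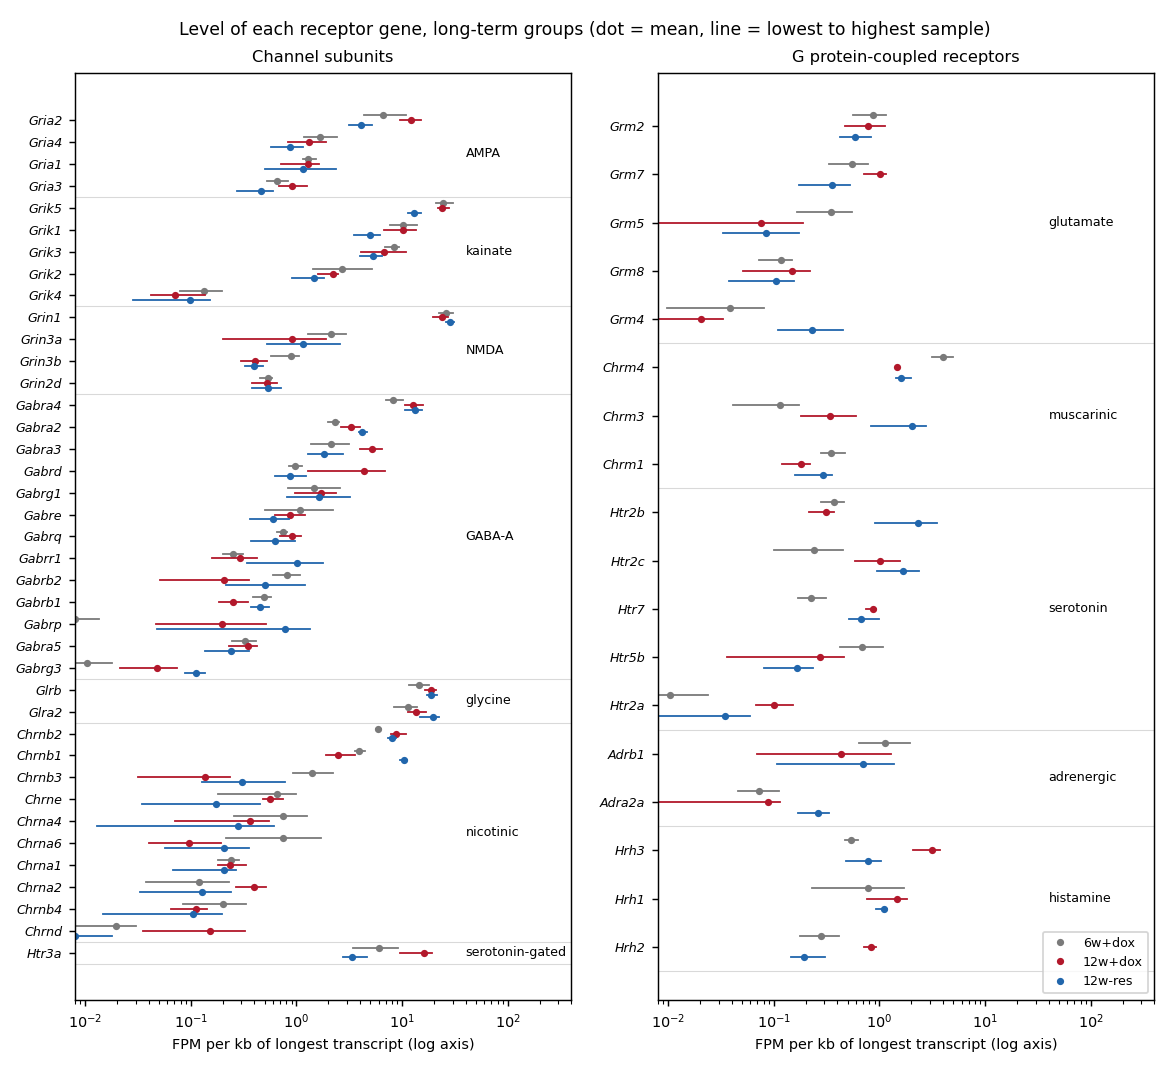
Level of 57 receptor genes in the long-term groups (the antisense RNA *Grin1os* is not drawn), in FPM per kb of the longest transcript on a log axis, as the mean (dot) and the lowest to highest sample (line) of 6w+dox, 12w+dox and 12w-res; values under 0.008 are drawn at the left edge. *Grin1*, *Grik5* and *Glrb* lie far to the right, and *Htr3a*, *Gabrd* and *Hrh3* at 12w+dox and *Chrnb1*, *Chrm3* and *Htr2b* in 12w-res lie to the right of the other groups.

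Several subunits of one channel were present at very unequal levels. *Grin1* made up 85.5% to 95.5% of the summed FPM per kb of the 4 NMDA subunit genes of the long-term table, the others being *Grin2d*, *Grin3a* and *Grin3b*. *Grin2a* and *Grin2b*, the main partners of *Grin1* in forebrain neurons, are listed in the short-term table only, at 0.174 to 1.5 FPM for *Grin2a*, and at 0.0305 to 0.288 FPM for *Grin2b* in 12 of the 13 samples and 4.92 in 16w +dox replicate 2. *Gabra4* led the 5 alpha subunits with 53.9% to 71.0%. These shares describe RNA per length of the longest transcript and not assembled channels.

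The first question was which receptor genes differ between early lesions (6w+dox) and tumors after 12 weeks of depletion, and the second which differ when RB has been restored for the last 6 of the 12 weeks. All 62 genes of the long-term table passed the filter on low values, and the 3 comparisons share their groups, so that they are not independent. Genes past both an adjusted p of 0.05 and a log2 change of 1 up or down are counted as called, as having risen or as having fallen. At 12w+dox against 6w+dox, 8 receptor genes rose (3.15% of all 15315 genes were called higher) and 5 fell (4.04% of all). The median log2 difference was 0.01 over the 62 and -0.01 over all genes. The groups did not overlap for 25 of the 62 (25.2% of all genes), and 33 were at an unadjusted p under 0.05 (36.5% of all). In 12w-res against 12w+dox, 5 rose (6.24% of all) and 8 fell (5.04% of all), with a median of -0.17 against 0.00 over all genes, and 23 of 62 did not overlap (34.5% of all) and 31 were at an unadjusted p under 0.05 (47.3% of all). In 12w-res against 6w+dox, 10 rose (5.81% of all) and 5 fell (5.82% of all), with a median of -0.23 against -0.02, and 25 did not overlap (32.7% of all) and 31 were at an unadjusted p under 0.05 (44% of all). These are 41 calls on 25 genes. Scaling by the totals of reads on genes in place of size factors moved the median of all genes to 0.29, -0.61 and -0.33 and gave 14 higher and 3 lower, 4 higher and 17 lower, and 7 higher and 11 lower, so the split between directions depends on the scaling. No called gene changed direction under any alternative tried.

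The GABA-A and nicotinic families held calls in both directions in each comparison, and the kainate, NMDA and glycine families held none. In 12w-res against 6w+dox the G protein-coupled serotonin, muscarinic and glutamate receptors held calls in both directions as well. Among the 16 GABA-A genes 2 rose and 1 fell at 12w+dox, 1 rose and 2 fell in 12w-res against 12w+dox, and 3 rose and 1 fell in 12w-res against 6w+dox. Of the 10 nicotinic genes the calls were 1 and 2, 1 and 1, and 1 and 1. For the 3 histamine receptors they were 2 and 0, 0 and 2, and 0 and 0. For the 5 G protein-coupled serotonin receptors they were 2 and 0, 1 and 0, and 3 and 1. Over all genes, 3.15% and 4.04%, 6.24% and 5.04%, and 5.81% and 5.82% were called higher and lower.

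**Figure D2:**
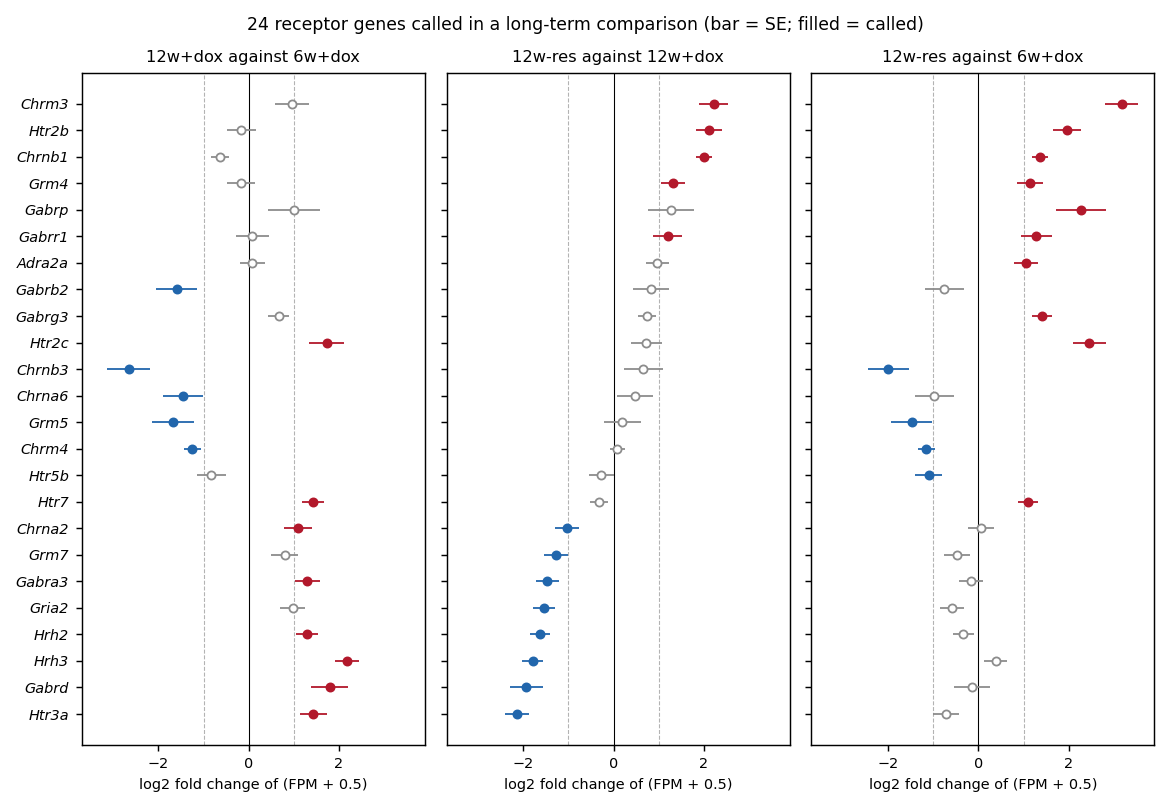
Log2 fold change of FPM + 0.5 (point) and its SE (bar) of 24 receptor genes called in at least 1 of the 3 long-term comparisons, in the order of the middle panel; filled red and blue points are called higher and lower, open points are not called, and dashed lines mark a log2 change of 1 in either direction. *Htr3a*, *Gabrd*, *Hrh3*, *Hrh2*, *Gabra3* and *Chrna2* lie to the right in the first panel and to the left in the second.

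A group of 6 genes was called higher at 12w+dox than at 6w+dox and lower in 12w-res than at 12w+dox: *Htr3a*, *Hrh3*, *Hrh2*, *Gabrd*, *Gabra3* and *Chrna2*. Both comparisons use the same 12w+dox samples, so high values there give both calls. None of the 6 was called between 12w-res and 6w+dox.

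*Htr3a*, the subunit that forms homomeric 5-HT3 channels (chromosome 9, 48899213 to 48911152), stood at 18.9, 11.7 and 7.20 FPM at 6w+dox, at 19.7, 38.2, 36.3 and 39.96 at 12w+dox, and at 6.81, 9.77, 7.01, 5.85 and 5.80 in 12w-res. All 4 tumors at 12w+dox lay above all other samples, although replicate 1 only just exceeded the highest 6w+dox sample. The log2 change was 1.43 ± 0.30 at 12w+dox against 6w+dox (adjusted p = 0.00549) and -2.15 ± 0.26 in 12w-res against 12w+dox (adjusted p = 3.4e-05). Among females alone the first change was 1.2 (adjusted p = 0.0881).

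Of the 3 histamine receptors, *Hrh3* and *Hrh2* showed the same order. *Hrh3*, best known as a presynaptic autoreceptor that inhibits release (chromosome 2, 180099465 to 180104484), was at 1.69, 1.38 and 1.28 FPM at 6w+dox, 5.62, 9.01, 10.1 and 8.99 at 12w+dox, and 1.51, 2.80, 1.32, 2.13 and 2.82 in 12w-res. The 12w+dox samples did not overlap with either other group. Its changes were 2.17 ± 0.26 (adjusted p = 0.000238) and -1.79 ± 0.23 (adjusted p = 5e-05). *Hrh2*, the Gs-coupled receptor of gastric acid secretion, measured 1.75, 1.02 and 0.745 FPM at 6w+dox, 3.00, 3.38, 3.70 and 3.94 at 12w+dox, and 1.30, 0.740, 0.683, 0.708 and 0.608 in 12w-res. Again the 12w+dox group stood alone, at 86 to 141 reads per library against 11 to 30 in the other samples, with changes of 1.30 ± 0.25 (adjusted p = 0.00303) and -1.63 ± 0.22 (adjusted p = 6.11e-05). *Hrh1*, the Gq-coupled receptor of allergy, ranged from 0.869 to 6.40 FPM at 6w+dox and from 2.9 to 6.90 at 12w+dox, which overlapped.

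Of the GABA-A subunits, *Gabrd* and *Gabra3* showed this order. *Gabrd*, the delta subunit of extrasynaptic receptors, was at 3.03, 2.45 and 2.32 FPM at 6w+dox, 3.45, 13, 18.6 and 12.3 at 12w+dox, and 3.33, 2.85, 1.73, 1.71 and 2.21 in 12w-res. Replicate 1 of 12w+dox lay just above the highest sample of the other groups and the other 3 far above it. The changes were 1.79 ± 0.41 (adjusted p = 0.00817; among females 1.24, adjusted p = 0.114) and -1.93 ± 0.36 (adjusted p = 0.00091). *Gabra3*, the X-linked alpha3 subunit, was at 11.4, 6.68 and 5.05 FPM, then 14.5, 17.2, 23.9 and 20.4, then 10.2, 5.81, 5.69, 4.66 and 7.02 in 6w+dox, 12w+dox and 12w-res. All 12w+dox samples exceeded all others, by 1.30 ± 0.28 (adjusted p = 0.00637; among females 1.06, adjusted p = 0.0779) and by -1.47 ± 0.25 in the reverse comparison (adjusted p = 0.000454). Its neighbours *Gabre* and *Gabrq* on the X chromosome were not called in any comparison.

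*Chrna2*, a nicotinic alpha subunit at 2 to 65 reads per library, was the weakest of the 6. The filter on low values kept it only through 12w+dox, the group where it is high. It ranged from 0.134 to 0.815 FPM at 6w+dox, from 0.942 to 1.82 at 12w+dox and from 0.118 to 0.845 in 12w-res, with changes of 1.09 ± 0.31 (adjusted p = 0.0221) and -1.03 ± 0.27 (adjusted p = 0.00841). The first was 0.99 without 12w+dox replicate 4 (adjusted p = 0.0611) and 0.85 without 6w+dox replicate 2 (adjusted p = 0.117). The second moved just under a log2 change of 1 without 12w+dox replicate 3 (-0.99), 12w+dox replicate 4 (-0.93), 12w-res replicate 1 (-0.98) or 12w-res replicate 4 (-0.88). With sex as a covariate the changes were 0.91 (adjusted p = 0.0716) and -0.99 (adjusted p = 0.0104), and in female samples alone 0.88 (adjusted p = 0.176) and -0.94 (adjusted p = 0.127). edgeR gave an adjusted p of 0.0526 for the first, so that neither call held under every setting.

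*Gria2* (GluA2; chromosome 3, 80681450 to 80804227) was at 49.4, 44.9 and 112 FPM at 6w+dox, 99.1, 102, 150 and 158 at 12w+dox, and 32.8, 54.0, 43.1, 37.6 and 46.0 in 12w-res. Each 12w+dox sample lay above each 12w-res sample, whereas 6w+dox replicate 3 reached the 12w+dox range. It fell by 1.55 ± 0.24 in 12w-res against 12w+dox (adjusted p = 0.000265) and differed by 0.97 ± 0.28 between 12w+dox and 6w+dox, under the minimum fold. Its share of the summed FPM per kb of the 4 AMPA subunits was 55.6% to 70.7% at 6w+dox, 69.3% to 81.4% at 12w+dox and 45.3% to 72.9% in 12w-res, which overlapped. The same 6w+dox replicate 3 was the highest of the 12 samples in 12 of the 62 receptor genes, among them *Grik2* at 49.4 FPM against 13.5 and 13.6 in its group. How often it was the highest over all genes was not counted. The glutamate receptor *Grm7* fell as well, from 3.00 to 4.87 FPM at 12w+dox to 0.728 to 2.22 in 12w-res (-1.27 ± 0.26, adjusted p = 0.00181).

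The kainate subunits moved less than the minimum fold. *Grik5* was 87.8 to 113 FPM at 12w+dox and 46.6 to 61.0 in 12w-res, with no overlap (-0.86 ± 0.13, adjusted p = 0.000173). *Grik1* was 24.6 to 49.0 and 12.7 to 22.6 FPM (-0.98 ± 0.23, adjusted p = 0.00475). In 12w-res against 6w+dox the corresponding differences were -0.89 ± 0.14 and -0.99 ± 0.25.

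**Figure D3:**
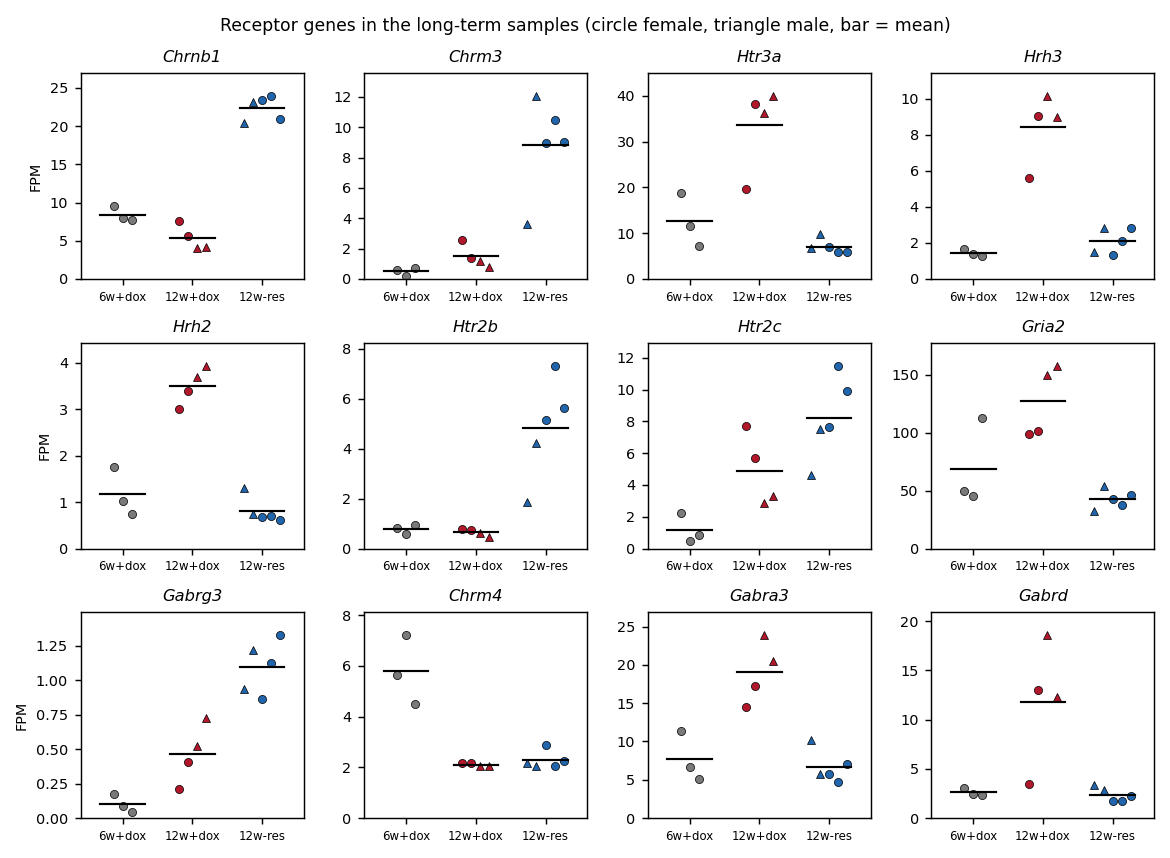
FPM in the long-term samples of the 12 genes of smallest adjusted p among the called receptor genes, from 0 on a linear axis that differs between panels; circles are female and triangles male samples, and bars are group means. In *Htr3a*, *Hrh3*, *Hrh2*, *Gria2*, *Gabra3* and *Gabrd* the 12w+dox mean is the highest, and in *Chrnb1*, *Chrm3*, *Htr2b*, *Htr2c* and *Gabrg3* the 12w-res mean.

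Another set was called higher in 12w-res than in both dox groups and comprised 5 genes: *Chrnb1*, *Chrm3*, *Htr2b*, *Gabrr1* and *Grm4*. *Chrnb1*, the beta subunit of the muscle nicotinic receptor (chromosome 11, 69784036 to 69795966), had the smallest adjusted p of all receptor genes. It was at 9.55, 7.97 and 7.66 FPM at 6w+dox, 7.64, 5.57, 4.10 and 4.13 at 12w+dox, and 20.4, 23.1, 23.4, 23.9 and 20.9 in 12w-res. Every 12w-res sample was above 20 FPM and every other sample under 10. The changes were 2.0 ± 0.17 against 12w+dox (adjusted p = 1.02e-06) and 1.36 ± 0.19 against 6w+dox (adjusted p = 9.23e-05). Its share of the 10 nicotinic genes, in summed FPM per kb, was 12.8% to 26.5% at 12w+dox and 48.5% to 57.0% in 12w-res. The muscle partners *Chrna1*, *Chrnd* and *Chrne* were at or under 1.60 FPM in all 12 samples, *Chrnd* at 0 reads in 4 of the 5 12w-res samples, and none of them was called. Of the skeletal muscle markers, 3 of 5 are listed, at a summed 3.79 to 10.5 FPM at 12w+dox and 6.85 to 13.5 in 12w-res, and 1 of the 3, *Myl1*, was called higher.

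*Chrm3*, the Gq-coupled muscarinic receptor of glands and smooth muscle, was at 0.582, 0.178 and 0.745 FPM at 6w+dox, 2.58, 1.37, 1.2 and 0.782 at 12w+dox, and 3.64, 12.0, 8.97, 10.5 and 9.01 in 12w-res. The groups did not overlap, and 12w-res replicate 1 was the lowest of its group. The change was 2.22 ± 0.33 against 12w+dox (adjusted p = 0.000173) and 3.17 ± 0.36 against 6w+dox (adjusted p = 1.92e-05). *Htr2b*, a 5-HT2B receptor known from smooth muscle, heart valve and fibroblasts (chromosome 1, 86097546 to 86116231), measured 0.815, 0.579 and 0.952 FPM at 6w+dox, 0.768, 0.758, 0.616 and 0.447 at 12w+dox, and 1.87, 4.23, 5.14, 7.32 and 5.64 in 12w-res. Here too replicate 1 of 12w-res was the lowest of its group, yet above all dox samples. The changes were 2.13 ± 0.29 (adjusted p = 7.5e-05) and 1.97 ± 0.31 (adjusted p = 0.000321).

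Between the 12-week groups, markers of vessel wall and stroma moved the same way. In 12w-res against 12w+dox, 5 of 5 pericyte and smooth muscle markers, 5 of 5 fibroblast markers and 4 of 5 endothelial markers were called higher. Their summed levels were 109 to 258 against 436 to 537 FPM, 55.2 to 236 against 378 to 910 FPM, and 55.9 to 118 against 182 to 246 FPM. At 6w+dox they were 121 to 158, 245 to 265 and 166 to 218 FPM, the last overlapping with 12w-res. In 12w-res against 6w+dox, *Rgs5*, *Acta2* and *Pdgfrb* were called higher. Of the fibroblast markers only *Col1a1* was called there, and no endothelial marker was. The summed melanotroph and corticotroph markers, which *Pomc* dominates, were 95966 to 198228 FPM at 12w+dox and 458516 to 580778 in 12w-res. That sum does not describe each marker. *Pcsk2* was called higher (1.37 ± 0.29, adjusted p = 0.00218, limma), whereas *Pomc* itself, *Pax7*, *Tbx19*, *Crhr1* and *Neurod1* were not called. Mean FPM at 12w+dox and in 12w-res was 5.14 and 5.12 for *Crhr1* and 2.32 and 2.15 for *Neurod1*. The part of these shifts in the receptor genes was not tested, and in whole tissue fewer cells of a type cannot be told apart from less RNA per cell.

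*Gabrr1*, the rho1 subunit known from the retina, was at 0.363 to 0.962 FPM at 12w+dox and 0.780 to 4.07 in 12w-res, so that the groups overlapped (1.2 ± 0.31, adjusted p = 0.00841). Without 12w-res replicate 4 the change was 0.99. Against 6w+dox (0.466 to 0.713 FPM) it was 1.28 ± 0.34 (adjusted p = 0.0107). *Grm4*, a Gi-coupled glutamate receptor, had 0 to 5 reads per library at 12w+dox and 11 to 38 in 12w-res, or 0 to 0.154 and 0.501 to 2.10 FPM. Its changes were 1.32 ± 0.27 (adjusted p = 0.00164) and 1.15 ± 0.29 against 6w+dox (adjusted p = 0.00759), the latter being 0.95 without 12w-res replicate 5. *Grm4* is near the floor of detection in the dox groups, and the size of its change depends on the pseudocount. It passed the filter on low values only through 12w-res, the group where it is high, so its calls follow in part from that selection.

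Another set of 5 genes was called higher in 12w-res than at 6w+dox but not than at 12w+dox: *Htr2c*, *Htr7*, *Gabrg3*, *Gabrp* and *Adra2a*. *Htr2c*, the X-linked Gq-coupled receptor of appetite circuits, was at 2.21, 0.490 and 0.828 FPM at 6w+dox, 7.71, 5.71, 2.9 and 3.32 at 12w+dox, and 4.63, 7.56, 7.65, 11.5 and 9.89 in 12w-res. Both 12-week groups lay above all 6w+dox samples and overlapped with each other. The changes against 6w+dox were 1.73 ± 0.39 at 12w+dox (adjusted p = 0.00726) and 2.46 ± 0.37 in 12w-res (adjusted p = 0.0002). *Htr7*, a Gs-coupled receptor, likewise stood at 0.534 to 0.990 FPM at 6w+dox, 2.33 to 2.93 at 12w+dox and 1.61 to 3.09 in 12w-res, with changes of 1.42 ± 0.24 (adjusted p = 0.00138) and 1.10 ± 0.22 (adjusted p = 0.00204). The second of these was 0.98 without 12w-res replicate 3 and 0.99 without 6w+dox replicate 2.

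*Gabrg3*, a gamma subunit, was at 0.175, 0.0891 and 0.0414 FPM at 6w+dox, 0.209, 0.408, 0.524 and 0.726 at 12w+dox, and 0.936, 1.22, 0.865, 1.12 and 1.33 in 12w-res. The 3 groups did not overlap, but at 6w+dox the values rest on 3, 2 and 1 reads. The change in 12w-res against 6w+dox was 1.40 ± 0.22 on the log2(FPM + 0.5) scale (adjusted p = 0.000294), which understates changes of genes this low. *Gabrp*, the pi subunit of epithelia, had 0, 1 and 0 reads at 6w+dox and 30, 3, 93, 75 and 45 in 12w-res (adjusted p = 0.00611), and it was uneven within 12w+dox too, at 48, 13, 5 and 14 reads. *Adra2a*, the Gi-coupled alpha2A-adrenergic receptor, was at 0.223 to 0.538 FPM at 6w+dox and 0.819 to 1.59 in 12w-res (1.05 ± 0.27, adjusted p = 0.00865). Its change fell just under 1 without 12w-res replicate 1 (0.99), without 12w-res replicate 4 (0.99) or without 6w+dox replicate 2 (0.95). The filter on low values kept *Gabrg3*, *Gabrp* and *Adra2a* only through the 12-week groups.

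The genes that fell from 6w+dox belonged to several families. *Chrm4* was at 5.65, 7.22 and 4.51 FPM at 6w+dox, 2.16, 2.16, 2.06 and 2.07 at 12w+dox, and 2.18, 2.06, 2.87, 2.07 and 2.27 in 12w-res. All 6w+dox samples lay above all 12-week samples, whose groups overlapped. The changes were -1.25 ± 0.20 (adjusted p = 0.00103) and -1.16 ± 0.19 (adjusted p = 0.000364). *Chrnb3*, a nicotinic beta subunit, fell by 2.66 ± 0.48 at 12w+dox (adjusted p = 0.00234) and by 1.99 ± 0.46 in 12w-res (adjusted p = 0.00439), from 4.28 to 10.2 FPM at 6w+dox to 0.146 to 1.08 and 0.592 to 3.59. Its neighbour on chromosome 8, *Chrna6*, was at 0.624 to 4.93 FPM at 6w+dox and, at 12w+dox, 0.117 to 0.558 (-1.45 ± 0.45, adjusted p = 0.0335). Without 6w+dox replicate 3 the *Chrna6* change was -0.77 (adjusted p = 0.103), without 12w+dox replicates 2, 3 or 4 it was -1.35, -1.40 or -1.45 (adjusted p = 0.0772, 0.0641 and 0.0671).

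*Gabrb2*, a beta subunit, was at 2.39 to 4.28 FPM at 6w+dox and, at 12w+dox, 0.204 to 1.43 (-1.60 ± 0.45, adjusted p = 0.0227). It was -1.33 without 12w+dox replicate 2 (adjusted p = 0.0629), -1.45 without 12w+dox replicate 3 (adjusted p = 0.0531) and -1.41 without 6w+dox replicate 2 (adjusted p = 0.101). *Htr5b* was at 0.828 to 2.10 FPM at 6w+dox and 0.156 to 0.455 in 12w-res (-1.10 ± 0.31, adjusted p = 0.0129, and -0.81 without 6w+dox replicate 1, adjusted p = 0.0739).

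*Grm5*, a Gq-coupled glutamate receptor, was at 1.34 to 4.39 FPM at 6w+dox, 0 to 1.54 at 12w+dox and 0.264 to 1.38 in 12w-res, and both 12-week groups overlapped with 6w+dox. Its changes were -1.67 ± 0.47 (adjusted p = 0.0211) and -1.48 ± 0.45 (adjusted p = 0.0198). The first was -1.35 without 12w+dox replicate 2 (adjusted p = 0.0578), -1.55 without 12w+dox replicate 4 (adjusted p = 0.0557), -1.63 without 6w+dox replicate 2 (adjusted p = 0.0748) and -1.34 without 6w+dox replicate 3 (adjusted p = 0.0556). The second was -1.44 without 6w+dox replicate 2 (adjusted p = 0.0647) and -1.15 without 6w+dox replicate 3 (adjusted p = 0.0792).

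The 6w+dox samples also held more RNA of other pituitary tissue. At 12w+dox against 6w+dox, 6 of 6 somatotroph, lactotroph and thyrotroph markers and 5 of 6 neural lobe markers were called lower. The neural lobe markers summed to 50.2 to 141 FPM at 6w+dox, 7.0 to 16.2 at 12w+dox and 9.72 to 15.1 in 12w-res. Somatotroph, lactotroph and thyrotroph markers summed to 56831 to 92022, 1154 to 12506 and 16078 to 30476 FPM. Markers of brain neurons summed to 507 to 591, 427 to 474 and 458 to 502 FPM, and 0 of 5 were called at 12w+dox. In other lists, 1 of 5 gonadotroph markers (*Cga*), 2 of 4 stem and folliculostellate markers (*Aldh1a2* and *Cyp2f2*) and 0 of 5 macrophage and leukocyte markers were called lower. The fibroblast markers *Lum*, *Dcn* and *Pdgfra*, the endothelial *Plvap* and *Emcn*, and the smooth muscle *Myh11* were also called lower. So were *Acta1* of skeletal muscle and, among melanotroph and corticotroph markers, *Crhr1* and *Neurod1*, while *Pax7* was called higher. In the same order of groups, gonadotroph markers summed to 1874 to 2190, 65.5 to 1124 and 408 to 4540 FPM, stem and folliculostellate markers to 153 to 176, 69.1 to 95.7 and 68.9 to 102, and macrophage and leukocyte markers to 75.1 to 107, 76.2 to 102 and 120 to 172. The part of these markers in the receptor genes that fell was not tested.

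**Figure D4:**
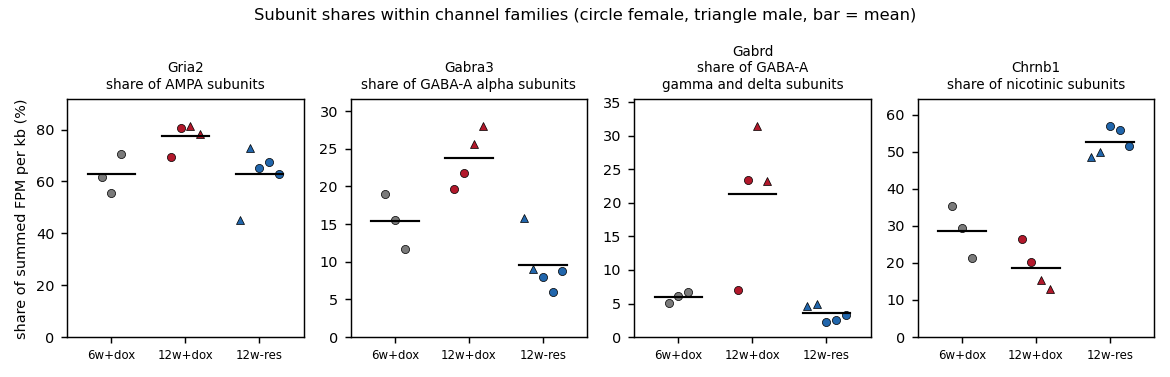
Share of 1 subunit gene in the summed FPM per kb of its channel family in each long-term sample (percent, from 0; circles female, triangles male, bars group means): *Gria2* among 4 AMPA, *Gabra3* among 5 alpha, *Gabrd* among 4 gamma and delta, and *Chrnb1* among 10 nicotinic genes. *Chrnb1* is at 48.5% to 57.0% in 12w-res and at most 35.3% elsewhere, and *Gabrd* reaches 31.5% at 12w+dox, where replicate 1 is at 6.99%.

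The subunit shares within the GABA-A family shifted with these genes. *Gabra3* held 19.6% to 28.0% of the 5 alpha subunits at 12w+dox against 6.02% to 15.8% in 12w-res and 11.6% to 18.9% at 6w+dox. *Gabrd* held 6.99% to 31.5% of the gamma and delta subunits at 12w+dox, 2.30% to 4.91% in 12w-res and 5.03% to 6.78% at 6w+dox. All 6w+dox samples were female, so whether changes from 6w+dox differ between the sexes could not be tested. Between the 12-week groups, 0 of the 62 receptor genes had a change that differed between males and females after adjustment (limma). An unadjusted p under 0.05 was reached by 3 of the 62, and 13 of 15315 genes passed. Each of these groups held 2 males, so a difference could be missed. Of the 41 long-term calls, 10 were lost in female samples alone, which are fewer, and 3 with sex as a covariate.

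Promoters of some genes called in 12w-res against 12w+dox are shown so that their sequence can be read beside the values. RefSeq windows of 300 bases (250 before to 50 after an annotated start, GRCm38.p6, printed 5′ to 3′ on the strand of the gene) matched 47 of the 68 genes. Shown are the 2 genes of smallest p in each direction among those with a single window, *Hrh3* (chr2:180104358-180104657, minus strand) and *Gria2* (chr3:80802786-80803085, minus strand), which fell, and *Chrnb1* (chr11:69795888-69796187, minus strand) and *Htr2b* (chr1:86111931-86112230, minus strand), which rose. Capitals mark every match, on both strands, to the motifs searched.
Hrh3: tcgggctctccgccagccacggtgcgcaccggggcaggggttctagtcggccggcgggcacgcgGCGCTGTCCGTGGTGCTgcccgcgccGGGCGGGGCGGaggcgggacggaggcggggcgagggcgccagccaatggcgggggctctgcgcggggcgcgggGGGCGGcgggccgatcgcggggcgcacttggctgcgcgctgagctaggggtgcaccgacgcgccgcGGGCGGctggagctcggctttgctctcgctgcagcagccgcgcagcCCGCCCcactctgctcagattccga
Gria2: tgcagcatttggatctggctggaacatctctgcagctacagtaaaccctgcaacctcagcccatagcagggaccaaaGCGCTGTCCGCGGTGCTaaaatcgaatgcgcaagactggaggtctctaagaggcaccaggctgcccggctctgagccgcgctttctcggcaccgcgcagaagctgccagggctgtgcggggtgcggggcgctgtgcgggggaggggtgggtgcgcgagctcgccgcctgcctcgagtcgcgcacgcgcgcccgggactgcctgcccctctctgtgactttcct
Chrnb1: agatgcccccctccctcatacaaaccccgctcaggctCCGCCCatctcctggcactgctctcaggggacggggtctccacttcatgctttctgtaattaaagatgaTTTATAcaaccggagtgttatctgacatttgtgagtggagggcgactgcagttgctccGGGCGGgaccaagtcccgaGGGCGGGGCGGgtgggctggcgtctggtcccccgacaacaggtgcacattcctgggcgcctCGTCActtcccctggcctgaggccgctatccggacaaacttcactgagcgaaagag
Htr2b: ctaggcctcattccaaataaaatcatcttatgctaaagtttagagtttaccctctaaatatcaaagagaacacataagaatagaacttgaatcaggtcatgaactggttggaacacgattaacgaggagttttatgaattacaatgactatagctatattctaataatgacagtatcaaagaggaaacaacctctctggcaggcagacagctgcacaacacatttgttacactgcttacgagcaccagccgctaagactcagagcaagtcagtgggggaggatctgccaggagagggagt
The motifs were the E2F sites TTTCCCGC and TTTGGCGC, the cAMP response element TGACGTCA and the short form TGACG (which every full element contains), the TATA box TATAAA, the GC box GGGCGG, and a core of the RE1 element bound by the repressor REST, which is the longest run of capitals in *Hrh3* and *Gria2* and was added to the search after these sequences had been seen. The RE1 core lay in the *Hrh3* and *Gria2* windows, which had been seen when it was added. Its count over the windows of all genes, 5 of 32851 (0.0152%), is therefore no measure of how unusual that is. It lay in no other of the 47 genes, but only matches at every fixed letter were counted, so variant sites would be missed. *Hrh3* also held 5 GC boxes, and *Chrnb1* held 4 GC boxes, 1 TATA box and 1 TGACG, while *Htr2b* held none of the motifs. A receptor gene was counted if any of its windows matched, so genes with several windows had more chances than a single window. GC boxes lay in 28 of the 47 genes (59.6%) and in 35.7% of all single windows. TGACG lay in 12 genes (25.5%) and in 20.8% of windows, and TATAAA in 6 (12.8%) and 13.6%. Shares of genes and of windows are unlike units, so no excess is read from them. The E2F sites (1.56% of all windows) and TGACGTCA (1.79%) lay in 0 of the 47. A match is a description of letters and not of binding.

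Genes that act with the receptors were followed as lists. Of 47 auxiliary and anchoring genes, 2 rose and 2 fell at 12w+dox against 6w+dox, 0 and 5 in 12w-res against 12w+dox, and 1 and 7 in 12w-res against 6w+dox. Of all genes tested, 3.15% and 4.04%, 6.24% and 5.04%, and 5.81% and 5.82% were called higher and lower in these comparisons. Those of smallest adjusted p in 12w-res against 12w+dox were *Nlgn3*, a neuroligin (21.5 to 6.84 mean FPM, -1.59 ± 0.16, adjusted p = 4.86e-06), *Cnih2*, a cornichon that accompanies AMPA receptors (95.6 to 42.3, -1.15 ± 0.17, adjusted p = 0.000159), and *Cacng4*, a transmembrane AMPA receptor regulatory protein (9.23 to 2.39, -1.73 ± 0.27, adjusted p = 0.000223). *Nptxr*, the neuronal pentraxin receptor, was higher than at 6w+dox in both 12-week groups (1.79 ± 0.37 and 2.19 ± 0.35), and *Nptx1* was lower at 12w+dox (-1.91 ± 0.34). The median log2 differences of the list were 0.09, -0.21 and -0.04. Of 50 G protein signalling genes, 4 rose and 2 fell, 0 and 4, and 1 and 3, with medians of 0.11, -0.11 and -0.02. *Rgs16*, which shortens Gi and Gq signals, rose at 12w+dox from a mean of 32.3 to 96.1 FPM (1.55 ± 0.19, adjusted p = 0.000213) and was 47.4 in 12w-res (-1.03 ± 0.16, adjusted p = 0.000284). *Gabbr2*, the GABA-B2 subunit, went from 3.22 to 10.1 and 3.04 FPM in the same order (1.48 ± 0.32 and -1.59 ± 0.28, adjusted p = 0.0064 and 0.000657).

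In the first 5 days after dox withdrawal no receptor gene was called by limma. Of the 52 genes of the short-term table, 50 passed the filter on low values. *Chrm2* and *Htr5b*, at 0 to 13 reads per library, did not. With limma, 0 of 50 were called at 1 day, 3 days or 5 days against 16w +dox or at 5 days against 1 day (0.043%, 0.129%, 0.193% and 0.0143% of all 13958 genes tested were called in either direction). At an unadjusted p under 0.05 there were 8, 13, 10 and 4 of the 50 (13.1%, 16.6%, 13.5% and 6.33% of all). edgeR on the recovered reads called 0 in each comparison, and DESeq2 called 1 gene, *Chrna4*, at 1 day and at 5 days. The groups did not overlap for 8, 10, 16 and 4 of the 50 (11.2%, 21.6%, 19.3% and 7.8% of all). Samples at 1 and 5 days are female and those at 16w +dox male, so that sex and time cannot be told apart in these comparisons. Only 3 days against 16w +dox (males) and 5 days against 1 day (females) are free of it.

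*Chrna4*, the nicotinic alpha4 subunit, was at 0.449, 3.13 and 0.128 FPM at 16w +dox, 0.0305 to 0.234 at 1 day, 1.56, 0.714 and 1.81 at 3 days and 0.0779 to 0.141 at 5 days. Replicate 2 was the highest of its group. The DESeq2 changes were -3.45 at 1 day (adjusted p = 0.00568) and -3.49 at 5 days (adjusted p = 0.0106), and without that library -1.34 (adjusted p = 0.658) and -1.40 (adjusted p = 0.547). In limma the change at 1 day was -1.09 (adjusted p = 0.288), and -0.35 without that library (adjusted p = 0.733). At 3 days DESeq2 gave 0.14 with all libraries (adjusted p = 0.959) and 2.24 ± 0.66 without replicate 2 (adjusted p = 0.0400), and limma without it 1.22 ± 0.26 (adjusted p = 0.0589). *Grin3a*, an NMDA receptor subunit, was at 0.649, 4.52 and 1.05 FPM at 16w +dox and 2.41, 1.2 and 5.81 at 3 days, and DESeq2 likewise gave 0.60 (adjusted p = 0.768) and, without replicate 2, 1.89 ± 0.56 (adjusted p = 0.0410). The same library was the highest of 13 samples in 8 receptor genes and the lowest in 12, and 3d -dox replicate 3 was also the highest in 8. Such extremes were not counted over all genes. In 16w +dox replicate 2, *Gria1* was at 10.9 FPM against 0.872 to 4.69 in the other samples. Of the 5 gonadotroph markers, *Gnrhr*, *Nr5a1* and *Cga* were highest in that library within its group, and *Lhb* and *Fshb* were lowest. *Gnrhr*, the receptor of gonadotropin-releasing hormone, was at 18.4 FPM in that library, 1.65 and 2.35 in the other 16w +dox samples and 12.5, 4.43 and 16.0 at 3 days. *Nr5a1*, the gonadotroph transcription factor SF1, was at 12.2 FPM in that library and at 1.10 and 0.995 in the others of its group. In replicates 1, 2 and 3 of 16w +dox, *Cga* had 181, 1913 and 289 reads, *Lhb* 190, 73 and 235, and *Fshb* 209, 33 and 375. Markers of other cells differed there too. In the same order, *Prl* had 291, 3499 and 496 reads, *Pou1f1* 34, 159 and 29, and *Gh* 7007, 3196 and 6321. Of the brain neuron markers, *Slc17a6* had 30, 219 and 19 reads and *Gad2* 683, 1852 and 497. *Slc17a7* had 127, 186 and 200, *Snap25* 2589, 2277 and 2533, and *Rbfox3* 724, 429 and 859. The 5 gonadotroph markers summed to 17.2 to 84.6 FPM at 16w +dox and 37.6 to 128 at 3 days, in males, and to 1.56 to 6.31 at 1 day and 2.80 to 4.30 at 5 days, in females. The part of any of these markers in the receptor values was not tested.

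The smallest adjusted p in males was that of *Gabrb1*, the beta1 subunit of the GABA-A receptor, at 2.25, 2.73 and 3.04 FPM at 16w +dox and 4.26, 3.61 and 4.65 at 3 days. The groups did not overlap (0.56 ± 0.14, adjusted p = 0.0846). *Gabrg1*, the gamma1 subunit, was at 1.47, 0.267 and 1.76 FPM against 3.80, 3.35 and 1.98 (1.19 ± 0.35, adjusted p = 0.128), and *Chrm3* at 1.60, 2.59 and 1.84 against 0.826, 0.877 and 0.453 (-1.04 ± 0.34, adjusted p = 0.158). In females, 5 days against 1 day, *Chrnb1* was at 1.21, 1.62, 0.773 and 1.05 FPM at 1 day and 1.65, 1.79 and 2.17 at 5 days, without overlap (0.53 ± 0.19, adjusted p = 0.685), and *Gria2* at 86.4 to 118 and 77.5 to 97.3, with overlap (-0.26 ± 0.10, adjusted p = 0.718). None of these differences passed the test. *Htr3a*, at 2.57 to 6.34 FPM at 16w +dox and 4.88 to 6.49 at 5 days, and *Hrh3*, at 0.909 to 1.99 and 0.953 to 1.64 FPM, overlapped between the groups. *Drd3*, which couples to Gi, had 3 to 14 reads in each male sample and 0 reads in each female sample. The filter on low values kept it only through 3d -dox, at 11, 7 and 14 reads, so this split follows in part from that selection. Female samples also had the lower gonadotroph marker sums, whose part was not tested.

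**Figure D5:**
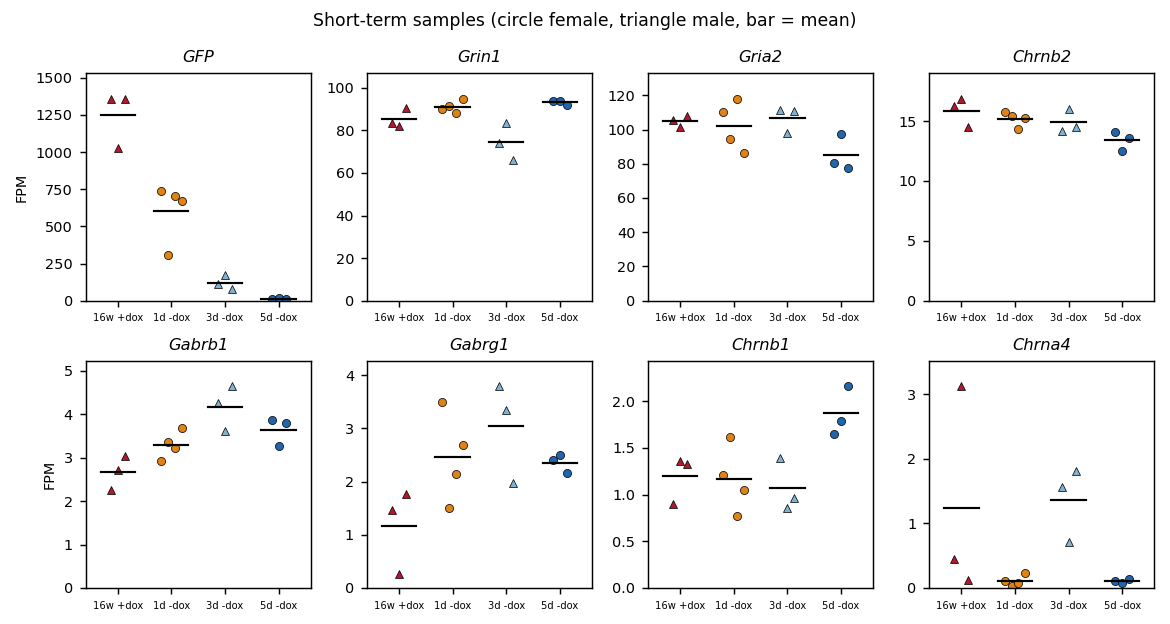
FPM of GFP and 7 receptor genes in the short-term samples, from 0 on a linear axis that differs between panels; circles are female and triangles male samples, and bars are group means. GFP falls at each time point, *Grin1*, *Gria2* and *Chrnb2* vary little, and *Chrna4* at 16w +dox is highest in replicate 2.

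The tables differ in which receptor genes they list. In the long-term table only are *Adra2a*, *Adrb1*, *Chrna6*, *Chrnb4*, *Chrnd*, *Chrne*, *Gabra3*, *Gabre*, *Gabrq*, *Glra2*, *Gria3*, *Grik4*, *Grin3b*, *Grm4*, *Htr2a* and *Htr2c*, of which 6 (*Gabra3*, *Gabre*, *Gabrq*, *Glra2*, *Gria3* and *Htr2c*) are on the X chromosome. The X chromosome holds 1 gene of the short-term table and 518 genes of the long-term one, so X-linked receptors could not be followed over the first days. In the short-term table only are *Chrm2*, *Chrna7*, *Drd3*, *Glra1*, *Grin2a* and *Grin2b*.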

How the data were processed

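The authors mapped reads to mm10 with STAR, counted RefSeq genes, dropped genes that did not reach 10 reads in over 50% of the libraries of any condition, and scaled the counts with DESeq2 size factors. The counting tool and strand setting are not given in the sources used here. The deposited signal values are therefore normalised read counts (FPM). All values were whole multiples of 1 read within 0.1 read, and reads were recovered from them. Replicate libraries differed by more than sampling noise.

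Main tests used limma 3.58.1 (R 4.3.3, trend) on log2(FPM + 0.5), which understates changes of low genes, with all groups of 1 experiment in 1 fit and Benjamini-Hochberg adjustment over all genes tested. The filter on low values was repeated. edgeR 4.0.16 and DESeq2 1.42.0 on the recovered reads, other pseudocounts, scalings, filters, sex and left-out libraries were alternatives. The tests were checked on simulated counts. Positions and promoters came from RefSeq, and lengths were those of the longest GENCODE transcript of each gene. Levels between genes were compared per kb only.

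Receptor genes were named with full values if called in any long-term comparison, if leading their family, or if listed in 1 table only, with values in every sample for the 12 called genes of smallest adjusted p. From the other lists at most 3 genes a direction were named. The other short-term genes, the kainate genes and the library extremes were named after their values were seen. Values of 4 receptor genes are not reported here or drawn, although counts and shares include them. Members and lists were chosen with earlier results of these data known.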

Additional observations from a re-analysis of the deposited data

Results flagged for a closer look

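Among 87 groups of 4 or 5 samples, 5 held a sample far from the others of its group by Dixon's criterion, which chance alone meets in about 1 in 20 groups. *Adra2a* was at 0.0308 FPM in 12w+dox replicate 3 against 0.554 to 0.559 in the other 3 samples. *Gabrp* was at 1.67 FPM in 12w+dox replicate 1 against 0.154 to 0.391. In 12w-res, *Chrm4* was at 2.87 FPM in replicate 3 against 2.06 to 2.27, and *Hrh2* at 1.3 FPM in replicate 1 against 0.608 to 0.740. In the short-term experiment GFP was at 310.0 FPM in 1d -dox replicate 2 against 670 to 741 in the other samples of that group.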

How the results depend on the processing

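Of the 41 long-term calls, 22 held under every alternative that gave them a value, 19 were lost under at least 1, among them 12 on leaving out a library, and 0 reversed. The filter of 10 reads in every sample gave a value for 22 of the 41 and DESeq2 an adjusted p for 40, and 5 of the calls that held had no value under that filter. At 12w+dox against 6w+dox, where 13 receptor genes were called, requiring 10 reads in every sample gave 8, female samples alone gave 8 and dropping the minimum fold gave 22. For 12w-res against 12w+dox (13 called), scaling by totals gave 21 and dropping the minimum fold 26. For 12w-res against 6w+dox (15 called), a pseudocount of 1 gave 9, 10 reads in every sample gave 5 and no minimum fold gave 27. The stricter filter and the female samples test fewer genes or samples, and the cause of the other shifts was not tested. Leaving out 1 library at a time gave 11 to 19, 11 to 16 and 14 to 17 calls. In the short-term comparisons the count stayed 0 in all alternatives except those with DESeq2, which with all libraries gave 1 at 1 day and 1 at 5 days against 16w +dox, and leaving out libraries in limma gave 0 throughout. DESeq2 without 16w +dox replicate 2, chosen after seeing the data, gave 0 at 1 day and 5 days and 2 at 3 days (*Chrna4* and *Grin3a*).

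Samples with the same number did not deviate together (r from -0.165 to 0.237 over 10 pairs and from -0.208 to 0.168 over 18), so the numbers are not taken to pair samples. With the replicate block the counts were 11, 14 and 12 in the long-term comparisons and 0 in each short-term one. Genes under about 10 reads per library, such as *Grm4* in the dox groups and *Gabrg3* and *Gabrp* at 6w+dox, have folds set largely by the pseudocount.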
